A study of Mus musculus with 18 samples.

Results

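Amino acid supply and tRNA charging genes were followed across 6 groups of mouse brown adipocytes: 20 cytosolic aminoacyl-tRNA synthetases, 11 amino acid transporters and 12 enzymes of serine, proline and cysteine synthesis, of the mitochondrial one-carbon cycle and of transamination. The 43 genes were taken by symbol from a list of these functions, and all 43 were found among the 20295 genes of the count table. All 43 also passed the filter on low counts, which left 12156 genes. The cells were BAT-LgT, a line of mouse brown preadipocytes made immortal with the SV40 large T antigen and differentiated in culture, so that every group shares this line, a wild-type genotype and the transgene. On day 7, cells received no inhibitor or the combined inhibitors of ATGL and HSL, the lipases that release fatty acids from stored triglyceride, for 1 h. They were then given Vehicle (DMSO), 100 nM isoproterenol (ISO), an agonist of all β-adrenergic receptors, or SR-3420 for 3 h. The compound SR-3420 binds ABHD5, the co-activator of ATGL, and starts lipolysis with no need of a receptor. The labels put it at 10 µM but the study's text states another concentration, and the 2 could not be reconciled from the sources used here. Each of the 6 groups has 3 samples from independent experiments, and the prefix Lipase Inh. marks those given inhibitors.

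Aminoacyl-tRNA synthetases join each amino acid to its tRNA and so feed the ribosome, and the transporters and enzymes studied here keep the pools of free amino acids filled. When these pools run low, or when other stresses reach the eIF2 kinases, translation of the transcription factor ATF4 rises, and many of these genes are known ATF4 targets. In brown fat, amino acids are also burned and serve the synthesis of proteins, glutathione and nucleotides.

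Total counts lay between 10310447 and 21205032 in 17 libraries, whereas Lipase Inh. + SR-3420 replicate 2 held 4263755 counts, of which the mitochondrial leucyl-tRNA synthetase Lars2 took 18.3%. For the effects of SR-3420 under inhibitors and its interaction, values without this library are given beside the result. All 10 brown adipocyte markers passed the filter, and their summed level was between 9795 and 15243 CPM (counts scaled to a common library size with TMM factors) in every sample. Single markers moved within this sum. With ISO 4 of the 10 were higher and 0 lower, where 26.8% of all genes were higher and 25.0% lower. With SR-3420 5 were higher and 3 lower (26.0% and 25.4% of all genes). Among the 3 were Pparg, the master regulator of fat cells, at -0.83 ± 0.09 in log2 (adjusted p = 1.98e-07), and the adipokine gene Adipoq at -0.52 ± 0.08 (1.35e-05). With ISO under inhibitors 6 were higher and Ebf2, a brown fat transcription factor gene, was lower (log2 -0.63), against 29.4% and 28.3% of all genes. The summed level of 5 preadipocyte or fibroblast markers was 32.7 to 40.8 CPM in the Vehicle samples, 44.9 to 55.985 CPM under ISO and 45.6 to 46.7 CPM under SR-3420, and was 31.5 to 37.6, 38.7 to 51.9 and 34.0 to 35.2 CPM in the same order with inhibitors. Ptprc had 0 counts in all 18 samples, and of the other genes that mark macrophages, endothelium or muscle, Emr1, Cdh5, Kdr, Myog and Myh1 had at most 3 counts, Pecam1 at most 9, Csf1r at most 14, Myod1 at most 22 and Cd68 between 10 and 70. Cd68 and Myod1 were called higher with ISO (0.74 ± 0.27 in log2, adjusted p = 0.0283, and 1.55 ± 0.58, adjusted p = 0.0304). The part of these shifts in the results was not tested. The 43 genes together took between 0.345% and 0.614% of a library's counts.

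Per length of counted transcript, the glutamine transporter gene Slc1a5 was the highest of the 43 with Vehicle, at 235 ± 12.5 CPM per kb (mean ± SD, n = 3). It was followed by the phosphoserine aminotransferase Psat1 at 115 ± 9.91 and the neutral amino acid transporter gene Slc38a2 at 88.8 ± 9.54 CPM per kb. Slc38a1, a transporter gene of the same family, was the lowest at 0.157 ± 0.0179 CPM per kb, next to the cystine-glutamate exchanger gene Slc7a11 at 0.852 ± 0.124 and the cationic transporter gene Slc7a3 at 0.862 ± 0.249 CPM per kb. Among the synthetases, the alanine enzyme Aars led at 35.8 ± 5.32 CPM per kb, close to the asparagine enzyme Nars at 33.4 ± 1.62 and the bifunctional glutamyl-prolyl enzyme Eprs at 33.0 ± 1.49 CPM per kb.

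Promoter windows of RefSeq (GRCm38.p6, 250 bases before to 50 after a gene's start) were at hand for 31 of the 43 genes, in 36 windows. The letters TTGCATCA, the core of the element that C/EBP and ATF4 dimers bind in amino acid response genes, stood on either strand in the windows of 8 of the 31 genes, against 0.895% of all 32851 windows. With any base at the third position (TTNCATCA) 9 genes held a match, against 3.97% of all windows. The full cAMP response element TGACGTCA stood in 0 of the 31 genes and in 1.79% of all windows, and its shorter form TGACG in 13 genes and 20.8% of all windows. A gene with several windows has more chances to match than a single window, so the counts of genes and the shares of windows are unlike measures. These letters were looked up after the expression values had been seen, and a match describes the sequence and not a bound site. The stretches below show the matches in capitals, read 5′ to 3′ on the strand of the gene. Slc7a11 is shown because it held 2 of them, Aars, Tars, Got1, Iars and Yars because they were higher with both stimuli, and Slc1a4 and Pycr1 because they held the same letters and were not. In Iars and Yars the match began 7 and 3 bases after the start, and in the others it lay before the start, 4 bases before it in Slc1a4 and 112 in Aars.
Slc7a11 (chr3:50443624-50443703, - strand): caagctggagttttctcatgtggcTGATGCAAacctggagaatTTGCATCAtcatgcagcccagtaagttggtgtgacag
Aars (chr8:111033692-111033771, + strand): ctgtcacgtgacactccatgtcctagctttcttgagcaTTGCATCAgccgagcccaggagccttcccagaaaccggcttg
Tars (chr15:11399659-11399728, - strand): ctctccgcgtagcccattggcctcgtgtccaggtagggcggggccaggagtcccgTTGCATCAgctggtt
Got1 (chr19:43524666-43524745, - strand): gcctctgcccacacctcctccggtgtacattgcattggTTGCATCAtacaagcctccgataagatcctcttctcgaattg
Iars (chr13:49682110-49682149, + strand): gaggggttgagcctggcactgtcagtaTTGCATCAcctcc
Yars (chr4:129189883-129189922, + strand): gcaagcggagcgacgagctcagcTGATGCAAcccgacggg
Slc1a4 (chr11:20332704-20332773, - strand): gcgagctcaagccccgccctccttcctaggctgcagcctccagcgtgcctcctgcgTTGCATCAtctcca
Pycr1 (chr11:120643809-120643888, - strand): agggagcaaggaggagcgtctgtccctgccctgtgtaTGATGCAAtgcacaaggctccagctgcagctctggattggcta

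The Eprs window is shown because it was the only one of the 31 genes to hold TGACG 3 times on either strand, as 1.03% of all windows do, and because the response of Eprs differed from that of most members.
Eprs (chr1:185362874-185363043, + strand): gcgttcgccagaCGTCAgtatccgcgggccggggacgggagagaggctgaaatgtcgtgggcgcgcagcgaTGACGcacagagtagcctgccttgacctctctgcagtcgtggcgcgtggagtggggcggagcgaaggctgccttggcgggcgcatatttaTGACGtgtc

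To see how an adrenergic signal and direct activation of lipolysis acted on these genes, ISO and SR-3420 were each compared with Vehicle. Most members were higher with either stimulus, led by transporter genes of the list and by a majority of the synthetases. The list was chosen with earlier results of these data known. Of 15 tested amino acid transporters outside it, 3 were higher and 8 lower with ISO, and 4 higher and 7 lower with SR-3420. With ISO, 27 of the 43 were higher, 4 lower and 12 not called at an adjusted p of at most 0.05, where 26.8% of all genes tested were higher and 25.0% lower. With SR-3420, 29 were higher, 3 lower and 11 not called, against 26.0% higher and 25.4% lower of all genes. Over the members the median log2 fold change came to 0.54 for either stimulus, against -0.02 over all genes in both. A log2 fold change of at least 1 was called for 13 members with ISO and 11 with SR-3420, all of them higher (all genes 5.03% higher and 4.07% lower with ISO, 3.97% and 2.37% with SR-3420). The 2 effects share their Vehicle samples, and 26 members (19.4% of all genes) were called higher in both. Adjusted p-values here and in what follows are from edgeR's quasi-likelihood test with Benjamini-Hochberg adjustment over the 12156 genes, and log2 fold changes are given ± SE. On total counts without scaling factors the median of all genes moved by -0.31 for ISO and -0.16 for SR-3420, and the members split into 22 higher and 8 lower with ISO and 24 higher and 6 lower with SR-3420. Of the 12156 genes, 1496 were then higher and 6004 lower with ISO, and 1947 higher and 4369 lower with SR-3420. In bulk RNA, fewer cells of a type and less RNA per cell cannot be told apart.

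**Figure D1:**
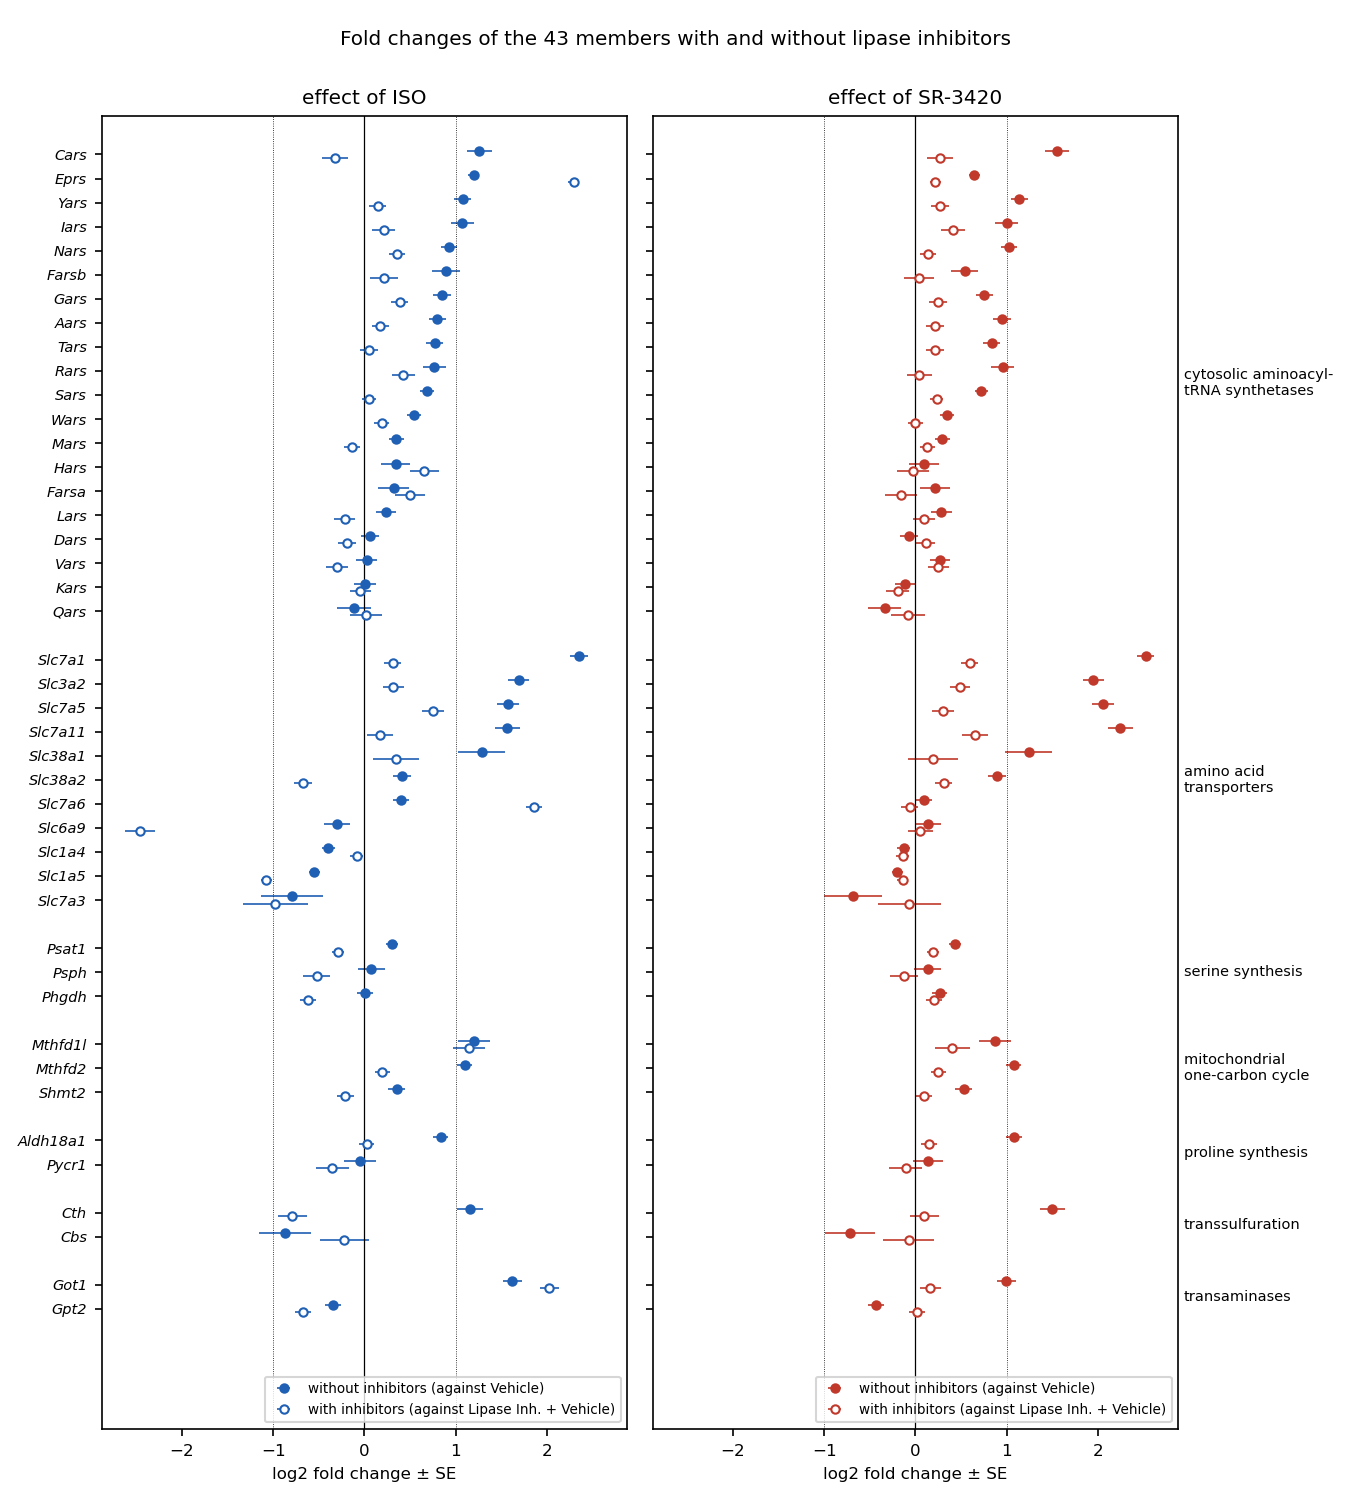
The log2 fold change ± SE of each of the 43 members is plotted on the x axis for ISO (left) and SR-3420 (right), without inhibitors against Vehicle (filled circles) and with inhibitors against Lipase Inh. + Vehicle (open circles), grouped by role, with dotted lines at a log2 fold change of 1 and -1. Most filled circles lie to the right of 0, up to 2.52 for Slc7a1 with SR-3420, while the open circles of SR-3420 lie between -0.19 and 0.65.

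Of the 11 transporter genes, 7 were higher and 2 lower with ISO, where 26.8% of all genes were higher and 25.0% lower. With SR-3420, 6 were higher and 1 lower, against 26.0% and 25.4% of all genes. The largest change was in Slc7a1, the transporter of arginine and lysine. The gene lies at chr5:149138986-149211480 (- strand, mm9). Its level was 99.3, 106 and 91.9 CPM in the 3 Vehicle samples, 511, 534 and 473 CPM with ISO and 564, 618 and 525 CPM with SR-3420. The groups were far apart, with a 5.11-fold rise with ISO (log2 fold change 2.35 ± 0.10, adjusted p = 1.73e-14) and a 5.74-fold rise with SR-3420 (2.52 ± 0.10, adjusted p = 1.04e-14).

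Slc3a2 codes for the heavy chain that carries several light-chain exchangers to the cell surface, and Slc7a5, Slc7a6 and Slc7a11 code for such light chains. Slc3a2 was at 156, 132 and 122 CPM with Vehicle, 453, 484 and 388 CPM with ISO and 494, 603 and 492 CPM with SR-3420, a rise of 1.69 ± 0.11 (adjusted p = 5.12e-11) with ISO and 1.95 ± 0.11 (adjusted p = 9.05e-12) with SR-3420 on the log2 scale. Slc7a5, the exchanger of large neutral amino acids such as leucine, was at 143, 139.9 and 135 CPM with Vehicle, 406, 444 and 393 CPM with ISO and 568, 666 and 505 CPM with SR-3420, a log2 rise of 1.57 ± 0.12 (adjusted p = 5.60e-10) with ISO and 2.06 ± 0.12 (adjusted p = 1.54e-11) with SR-3420. In both genes every stimulated sample lay above every Vehicle sample. Slc7a11, which brings in cystine for glutathione synthesis, went from 6.64, 8.04 and 8.91 CPM with Vehicle to 24.5, 21.9 and 22.8 CPM with ISO and 39.8, 40.8 and 30.6 CPM with SR-3420. Its log2 rise was 1.57 ± 0.14 (adjusted p = 5.59e-09) with ISO and 2.24 ± 0.14 (adjusted p = 1.98e-11) with SR-3420.

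The light chain gene Slc7a6, which exchanges arginine for neutral amino acids, differed from these. It was at 76.4, 76.1 and 71.6 CPM with Vehicle, 99.4, 108 and 88.7 CPM with ISO and 72.3, 88.1 and 78.7 CPM with SR-3420. In log2 it differed from Vehicle by 0.40 ± 0.09 (adjusted p = 0.000817) with ISO, a call lost on total counts (0.09, adjusted p = 0.371), and 0.09 ± 0.09 (adjusted p = 0.415) with SR-3420. The sodium-coupled neutral amino acid transporter gene Slc38a2 rose from 381, 391 and 462 CPM with Vehicle to 557, 496 and 591 CPM with ISO and 771, 707 and 807 CPM with SR-3420. These are log2 changes of 0.42 ± 0.10 (adjusted p = 0.00117), which was lost on total counts (0.11, adjusted p = 0.412), and of 0.89 ± 0.10 (adjusted p = 1.58e-07). Its relative Slc38a1 was scarce, at 1.26, 1.00 and 1.15 CPM with Vehicle, 3.33, 2.18 and 2.84 CPM with ISO and 2.79, 2.95 and 2.46 CPM with SR-3420, and its log2 rise was 1.28 ± 0.26 (adjusted p = 0.000287) with ISO and 1.24 ± 0.26 (adjusted p = 0.000359) with SR-3420.

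Against this pattern, the most abundant member fell. Slc1a5, which carries glutamine, was at 678, 659 and 611 CPM with Vehicle, 447, 418 and 464 CPM with ISO and 557, 571 and 568 CPM with SR-3420. The 3 groups did not overlap, and the log2 fold changes were -0.55 ± 0.06 (adjusted p = 1.22e-07) with ISO and -0.20 ± 0.06 (adjusted p = 0.00885) with SR-3420. Slc1a4, a carrier of alanine, serine and cysteine, was lower with ISO (-0.39 ± 0.07, adjusted p = 6.35e-05) and not called with SR-3420 (-0.13 ± 0.07, adjusted p = 0.124). The glycine transporter gene Slc6a9 was at 35.2, 29.8 and 33.5 CPM with Vehicle, 23.0, 29.0 and 28.5 CPM with ISO and 33.9, 41.6 and 33.2 CPM with SR-3420, and was not called in either (adjusted p = 0.0910 and 0.429). Slc7a3 was not called either, at 0.882 to 2.401 CPM in the 9 samples without inhibitors.

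**Figure D2:**
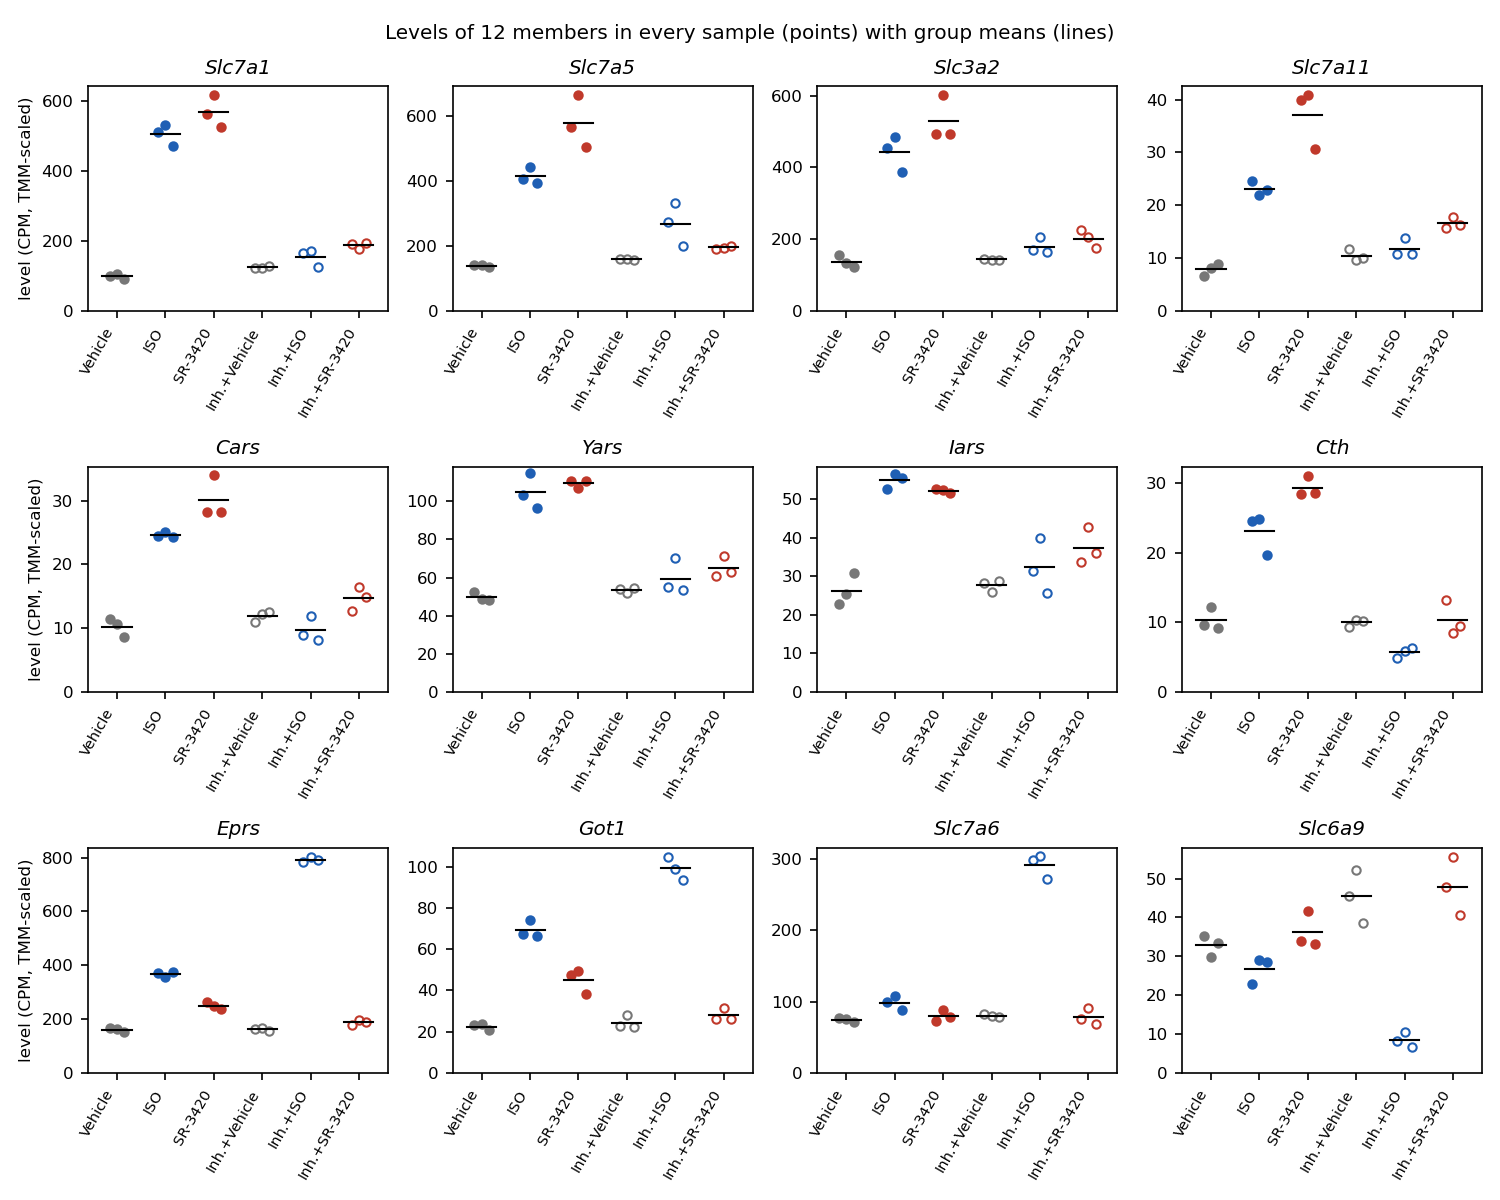
Each panel plots the level of 1 member (y axis, CPM of TMM-scaled libraries) in the 6 groups (x axis), with 1 point per sample, filled without and open with inhibitors, and a line at the mean of the 3 samples. Slc7a1, Slc7a5, Slc3a2, Slc7a11, Cars, Yars, Iars and Cth are high in both stimulated groups without inhibitors, whereas Eprs, Got1 and Slc7a6 are highest in Lipase Inh. + ISO and Slc6a9 lowest there.

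Among the 20 cytosolic synthetases, ISO raised 13 and SR-3420 raised 15, and 0 were lower in either by edgeR. Of all genes, 26.8% were higher and 25.0% lower with ISO, and 26.0% and 25.4% with SR-3420. DESeq2 called all of these 13 and 15 synthetases as well. At an unadjusted p of at most 0.05 the number lower was also 0 in both, a threshold at which the share of all genes was not taken. Their median log2 fold change stood at 0.73 for ISO and 0.59 for SR-3420. The cysteine enzyme Cars had the largest change. Cars was at 11.4, 10.7 and 8.65 CPM with Vehicle, 24.5, 25.1 and 24.4 CPM with ISO and 28.3, 34.0 and 28.3 CPM with SR-3420, a log2 rise of 1.26 ± 0.14 (adjusted p = 8.18e-08) with ISO and 1.55 ± 0.13 (adjusted p = 3.92e-09) with SR-3420. The tyrosine enzyme Yars was at 52.3, 48.6 and 48.3 CPM with Vehicle, 103, 115 and 96.6 CPM with ISO and 111, 107 and 111 CPM with SR-3420, a log2 rise of 1.07 ± 0.09 (adjusted p = 2.47e-09) with ISO and 1.14 ± 0.09 (adjusted p = 1.45e-09) with SR-3420. The isoleucine enzyme Iars was at 22.7, 25.3 and 30.8 CPM with Vehicle, 52.7, 56.6 and 55.4 CPM with ISO and 52.7, 52.2 and 51.6 CPM with SR-3420, a log2 rise of 1.07 ± 0.13 (adjusted p = 3.16e-07) with ISO and 1.00 ± 0.13 (adjusted p = 9.75e-07) with SR-3420. In all 3 genes every stimulated sample lay above every Vehicle sample.

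Nars was at 93.5, 85.9 and 86.2 CPM with Vehicle, 158, 191 and 156 CPM with ISO and 180.4, 195 and 166 CPM with SR-3420, and rose by 0.93 ± 0.09 (adjusted p = 9.08e-09) with ISO and 1.03 ± 0.09 (adjusted p = 2.81e-09) with SR-3420 on the log2 scale. Eprs was at 166, 161 and 152 CPM with Vehicle, 371, 355 and 373 CPM with ISO and 265, 247 and 239 CPM with SR-3420, with log2 rises of 1.20 ± 0.06 (adjusted p = 7.61e-13) with ISO and 0.65 ± 0.06 (adjusted p = 1.73e-08) with SR-3420. Of the synthetases higher with both stimuli, Aars, Gars, Rars, Sars and Tars (alanine, glycine, arginine, serine and threonine) rose by between 0.69 and 0.85 in log2 with ISO and between 0.72 and 0.95 with SR-3420. Farsb, a subunit of the phenylalanine enzyme, rose by 0.89 and 0.54, the tryptophan enzyme Wars by 0.54 and 0.35, and the methionine enzyme Mars by 0.35 and 0.29 in log2. On total counts Mars lost both calls (0.04, adjusted p = 0.742 with ISO, 0.13, adjusted p = 0.251 with SR-3420) and Wars that with SR-3420 (0.19, adjusted p = 0.0850). The leucine and valine enzymes Lars and Vars were called with SR-3420 (0.28 ± 0.11, adjusted p = 0.0368 and 0.27 ± 0.11, adjusted p = 0.0497) and not with ISO (0.23 ± 0.11, adjusted p = 0.0876 and 0.03 ± 0.11, adjusted p = 0.864). Both SR-3420 calls were weak: that of Lars was lost without Vehicle replicate 2 or 3 or SR-3420 replicate 2 (adjusted p = 0.0734, 0.167 and 0.218), and that of Vars without Vehicle replicate 3 or SR-3420 replicate 2 or 3 (0.245, 0.223 and 0.10). Dars, Farsa, Hars, Kars and Qars (aspartate, phenylalanine, histidine, lysine and glutamine) were called in neither, with log2 fold changes from -0.34 to 0.34.

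The mitochondrial synthetases charge tRNAs inside the organelle. Of 17, 2 were higher and 5 lower with ISO, and 1 was higher and 9 lower with SR-3420, with median log2 fold changes of -0.04 and -0.34 (all genes 26.8% higher and 25.0% lower with ISO, 26.0% and 25.4% with SR-3420). Cars2, the mitochondrial cysteine enzyme, was higher with ISO (0.72 ± 0.14, adjusted p = 0.000246) and was not called with SR-3420 (-0.09 ± 0.15, adjusted p = 0.627). Lars2 was not called (0.29 ± 1.05, adjusted p = 0.834 with ISO and -0.16 ± 1.05, adjusted p = 0.914 with SR-3420), with a wide SE in a fit that held the library in which it took 18.3% of counts. Of the 3 scaffold genes of the multisynthetase complex, Eef1e1 was higher with both stimuli (1.18 ± 0.09 for ISO and 0.80 ± 0.09 for SR-3420), and Aimp1 and Aimp2 were not called. The difference between the cytosolic and the mitochondrial genes was not tested.

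**Figure D3:**
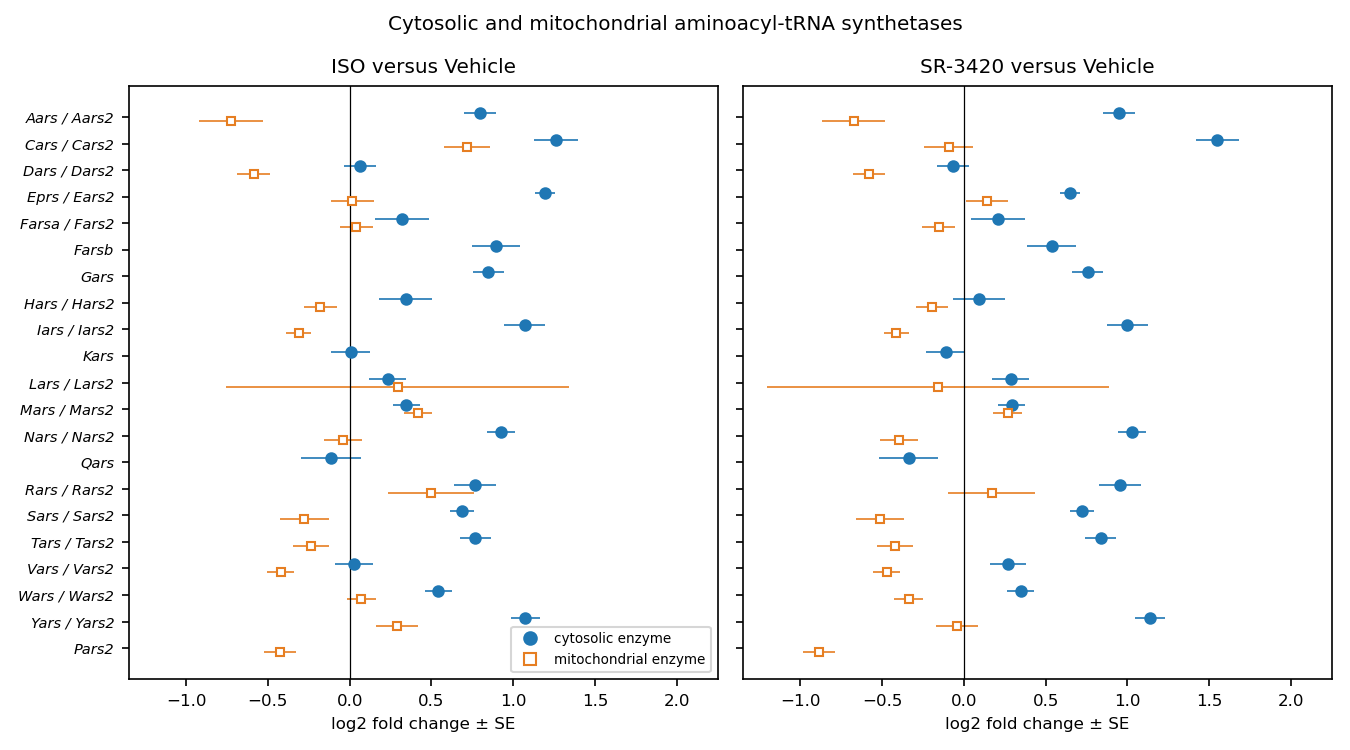
The log2 fold change ± SE (x axis) of each cytosolic synthetase (filled circles) is plotted beside that of the mitochondrial enzyme for the same amino acid (open squares) for ISO (left) and SR-3420 (right) against Vehicle, where Pars2 has no cytosolic partner of its own in the plot. Cytosolic enzymes reach 1.55 (Cars with SR-3420), while the mitochondrial ones reach 0.72 (Cars2 with ISO) and go down to -0.88 (Pars2 with SR-3420).

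The mitochondrial one-carbon cycle, which turns serine into glycine and formate, was higher in all 3 members with either stimulus (26.8% of all genes with ISO, 26.0% with SR-3420). Mthfd2, its dehydrogenase, was at 98.7, 89.3 and 105 CPM with Vehicle, 201, 213 and 214 CPM with ISO and 208, 213 and 198 CPM with SR-3420, a log2 rise of 1.10 ± 0.08 (adjusted p = 3.39e-10) with ISO and 1.08 ± 0.08 (adjusted p = 7.02e-10) with SR-3420. Mthfd1l, which releases formate, was at 6.07, 4.33 and 3.35 CPM with Vehicle, 11.0, 10.8 and 10.2 CPM with ISO and 9.33, 7.80 and 8.49 CPM with SR-3420, a log2 rise of 1.20 ± 0.17 (adjusted p = 5.62e-06) with ISO and 0.87 ± 0.17 (adjusted p = 0.000264) with SR-3420. The first enzyme, Shmt2, rose by 0.35 ± 0.09 (adjusted p = 0.00254) with ISO, a call lost on total counts (0.05, adjusted p = 0.721), and by 0.53 ± 0.09 (adjusted p = 5.08e-05) with SR-3420. In serine synthesis, Psat1 was at 237, 237 and 274 CPM with Vehicle, 299, 302 and 319 CPM with ISO and 348, 333 and 327 CPM with SR-3420. In log2 it differed from Vehicle by 0.30 ± 0.07 (adjusted p = 0.000706) with ISO, which turned to -0.01, adjusted p = 0.953 on total counts, and 0.43 ± 0.07 (adjusted p = 1.51e-05) with SR-3420. Phgdh, the entry enzyme, was called with SR-3420 (0.26 ± 0.09, adjusted p = 0.0143), though not without Vehicle replicate 1 or SR-3420 replicate 2 (adjusted p = 0.0570 and 0.0678) and not on total counts (0.10, adjusted p = 0.327). It was not called with ISO (0.01 ± 0.09, adjusted p = 0.932), and Psph, the last enzyme, in neither.

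Of the remaining enzymes, 1 member of each pair was higher. Aldh18a1, which starts proline synthesis from glutamate, was at 36.7, 37.9 and 36.3 CPM with Vehicle, 65.4, 71.9 and 60.4 CPM with ISO and 75.0, 86.2 and 73.4 CPM with SR-3420, a log2 rise of 0.83 ± 0.08 (adjusted p = 3.62e-08) with ISO and 1.08 ± 0.08 (adjusted p = 9.80e-10) with SR-3420, while Pycr1, which completes it, was at 5.04 to 6.61 CPM in these 9 samples and was not called. Cth, which releases cysteine from cystathionine, was at 9.67, 12.3 and 9.17 CPM with Vehicle, 24.6, 24.9 and 19.7 CPM with ISO and 28.5, 31.1 and 28.6 CPM with SR-3420, a log2 rise of 1.16 ± 0.14 (adjusted p = 4.90e-07) with ISO and 1.50 ± 0.14 (adjusted p = 1.19e-08) with SR-3420. Cbs, which makes cystathionine, was scarce and lower (-0.87 ± 0.29, adjusted p = 0.0138 with ISO and -0.71 ± 0.27, adjusted p = 0.0332 with SR-3420), and its ISO call was lost without Vehicle replicate 1 or ISO replicate 3 (adjusted p = 0.0559 and 0.0666) and its SR-3420 call without either of Vehicle replicates 1 and 3 or SR-3420 replicates 1 and 3 (0.0943 to 0.118).

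Got1, the cytosolic enzyme that passes amino groups between aspartate and glutamate, was at 23.1, 23.5 and 20.9 CPM with Vehicle, 67.4, 74.2 and 66.4 CPM with ISO and 47.3, 49.4 and 38.4 CPM with SR-3420. Its log2 rise was 1.62 ± 0.11 (adjusted p = 3.65e-11) with ISO and 0.99 ± 0.11 (adjusted p = 1.04e-07) with SR-3420, and no 2 of these groups overlapped. Gpt2, the mitochondrial alanine aminotransferase, was at 149, 140.3 and 172 CPM with Vehicle, 127, 106 and 131 CPM with ISO and 116, 108 and 117 CPM with SR-3420 and fell in both (-0.34 ± 0.09, adjusted p = 0.00308 with ISO and -0.43 ± 0.09, adjusted p = 0.000413 with SR-3420).

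ISO and SR-3420 were then compared with each other. Of the members that were lower with ISO, 6 of 8 were transporters. In all, 3 members were higher and 8 lower with ISO than with SR-3420, where 15.8% of all genes were higher and 13.9% lower, and on total counts the split was 2 higher and 17 lower with a median of all genes moved by -0.15. At that setting 775 of the 12156 genes were higher and 3035 lower. No member differed by a log2 fold change of at least 1 (0 higher and 0 lower, all genes 1.23% and 0.814%). The 8 lower members were Slc7a11 (-0.68 ± 0.12, adjusted p = 0.000280), Slc7a5 (-0.48 ± 0.12, adjusted p = 0.00347), Slc38a2 (-0.48 ± 0.10, adjusted p = 0.000900), Slc6a9 (-0.44 ± 0.14), Slc1a5 (-0.35 ± 0.06), Slc1a4 (-0.27 ± 0.07), Phgdh (-0.25 ± 0.09) and Aldh18a1 (-0.24 ± 0.08). Without SR-3420 replicate 2, Slc6a9, Phgdh and Aldh18a1 were lost and 5 remained called lower (adjusted p = 0.120, 0.116 and 0.152). Slc6a9 was also lost without ISO replicate 1 (0.142), Aldh18a1 without ISO replicate 1 or 3 (0.0803 and 0.125), and Phgdh without ISO replicate 2 or 3 or SR-3420 replicate 3 (0.0538 to 0.104). Higher with ISO were Got1 (0.63 ± 0.10, adjusted p = 6.22e-05), Eprs (0.55 ± 0.06, adjusted p = 6.08e-07) and Slc7a6 (0.31 ± 0.09, adjusted p = 0.0130), the last not without SR-3420 replicate 1 or ISO replicate 2 (adjusted p = 0.0794 and 0.0849) and not on total counts (0.16, adjusted p = 0.169). Of the 20 synthetases, Eprs was the 1 that passed this test.

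The inhibitors were first given alone. In Lipase Inh. + Vehicle against Vehicle, 0 members were higher and 0 lower by edgeR, where 0.485% and 0.428% of all genes were (0.00823% and 0.0411% with a log2 fold change of at least 1). A fit with a replicate block called Slc7a1 and Slc6a9 higher, and 147 of 12156 genes. At an unadjusted p of at most 0.05, 4 members were higher and 0 lower, and the share of all genes at that threshold was not taken. DESeq2 called 1 member higher and 0 lower with no adjusted p for 8 members, and 115 of 12156 genes higher and 82 lower. The largest log2 fold changes were those of Slc6a9 (0.46 ± 0.14, adjusted p = 0.153), at 45.4, 52.2 and 38.5 CPM in Lipase Inh. + Vehicle, Slc38a1 (0.43 ± 0.28, adjusted p = 0.590), Slc7a11 (0.42 ± 0.15, adjusted p = 0.242) and Slc7a1 (0.33 ± 0.09, adjusted p = 0.126), the last at 123, 122 and 129 CPM.

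With the lipases inhibited, the members called with ISO were split nearly evenly, at shares near those of all genes. Against Lipase Inh. + Vehicle, 13 (30.2%) were higher, 10 (23.3%) lower and 20 not called, where 29.4% of all genes were higher and 28.3% lower. The median log2 fold change was 0.05 (all genes -0.01). A log2 fold change of at least 1 was called for 4 higher and 2 lower members (5.43% and 7.63% of all genes). On total counts 6 were higher and 17 lower, with a median of all genes moved by -0.23, and 1973 of the 12156 genes were higher and 5119 lower. The interaction, the effect of ISO with inhibitors minus its effect without, was lower for 26 members and higher for 4 (16.6% and 14.9% of all genes), with a median of -0.56 against 0.01 for all genes. It was at least 1 in size for 2 higher and 7 lower members (2.18% and 4.71% of all genes). Of the 27 members that ISO raised, 21 had a negative interaction, 3 a positive one, and 3 passed neither way. The effect of ISO without inhibitors enters both measures, and of the 3258 genes that ISO raised, 31.8% had a negative and 13.4% a positive interaction. Of the 27, 3 had a negative interaction and were called lower with ISO under inhibitors, against 285 (8.75%) of the 3258 genes. On the narrower base, these are 3 of the 21 members and 285 of the 1037 raised genes with a negative interaction. The interaction was called negative in 12 synthetases, 7 transporters and all 3 serine enzymes. Among these, the calls of Lars, Wars and Farsb were lost in 9, 5 and 3 of 12 fits that left out a library (adjusted p = 0.0583 to 0.101, 0.0517 to 0.0750 and 0.0570 to 0.0607). Of the effects of ISO under inhibitors, those of Vars, Slc7a3 and Rars were lost in 5, 3 and 2 of 6 such fits (0.0616 to 0.128, 0.0704 to 0.0959 and 0.0514 to 0.0544).

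Transporter genes were among the members with the largest negative interaction. With inhibitors, Slc7a1 went from 123, 122 and 129 CPM with Vehicle to 166, 172 and 126 CPM with ISO, so the groups overlapped. Its log2 fold change was 0.31 ± 0.09 (adjusted p = 0.00714), a call lost without Lipase Inh. + ISO replicate 2 (adjusted p = 0.0615) and on total counts (0.09, adjusted p = 0.528), and the interaction was -2.04 ± 0.13 (adjusted p = 1.43e-10). Slc3a2 was at 146, 143 and 142 CPM in Lipase Inh. + Vehicle and 169, 205 and 163 CPM in Lipase Inh. + ISO, with 0.32 ± 0.11 (adjusted p = 0.0183), lost without Lipase Inh. + ISO replicate 2 (0.135) and on total counts (0.09, adjusted p = 0.516), and an interaction of -1.37 ± 0.16 (adjusted p = 6.25e-07). Slc7a11 was at 11.7, 9.72 and 9.94 CPM and 10.7, 13.8 and 10.8 CPM in these groups, with an interaction of -1.40 ± 0.20 (adjusted p = 1.22e-05). Slc7a5 was still higher with ISO, at 159, 160.3 and 157 CPM and 273, 332 and 200.1 CPM, a log2 fold change of 0.75 ± 0.12 (adjusted p = 1.42e-05) and an interaction of -0.82 ± 0.17 (adjusted p = 0.000744).

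The synthetases with a negative interaction of more than 0.8 in log2 were Cars, Yars and Iars. Cars was at 11.0, 12.2 and 12.5 CPM in Lipase Inh. + Vehicle and 8.91, 11.9 and 8.11 CPM in Lipase Inh. + ISO, with an interaction of -1.58 ± 0.20 (adjusted p = 1.96e-06). Yars was at 54.2, 51.8 and 54.5 CPM and 54.8, 70.4 and 53.2 CPM with -0.93 ± 0.13 (adjusted p = 9.16e-06), and Iars at 28.1, 26.0 and 28.7 CPM and 31.3, 39.9 and 25.5 CPM with -0.86 ± 0.18 (adjusted p = 0.000786). None of the 3 was called with ISO once inhibitors were present (adjusted p = 0.0560, 0.179 and 0.167). Nars stayed called, at 89.3, 93.0 and 85.3 CPM and 113, 127 and 104 CPM (0.36 ± 0.09, adjusted p = 0.00125), though not on total counts (0.13, adjusted p = 0.270), with an interaction of -0.57 ± 0.12 (adjusted p = 0.000973). Mthfd2 was at 114, 108 and 103 CPM and 118, 144 and 110.1 CPM, with an interaction of -0.90 ± 0.12 (adjusted p = 3.21e-06). Its remaining effect of 0.20 ± 0.08 (adjusted p = 0.0455) was lost without Lipase Inh. + Vehicle replicate 2 or 3 (adjusted p = 0.0805 and 0.152) or Lipase Inh. + ISO replicate 2 (0.402) and turned to -0.03, adjusted p = 0.825 on total counts. Aldh18a1 was at 37.0, 42.3 and 38.9 CPM and 38.1, 42.5 and 39.6 CPM, with an interaction of -0.81 ± 0.12 (adjusted p = 2.03e-05).

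For Cth, Psat1 and Slc38a2 the effect of ISO had the opposite sign with inhibitors. Cth fell from 9.41, 10.4 and 10.2 CPM in Lipase Inh. + Vehicle to 4.86, 5.86 and 6.39 CPM in Lipase Inh. + ISO, a log2 fold change of -0.79 ± 0.16 (adjusted p = 0.000224) and an interaction of -1.95 ± 0.21 (adjusted p = 3.32e-07). Slc38a2 fell from 477, 417 and 532 CPM to 306, 279 and 311 CPM (-0.67 ± 0.10, adjusted p = 4.98e-06, interaction -1.09 ± 0.14, adjusted p = 2.97e-06). Psat1 fell from 261, 246 and 247 CPM to 208, 207 and 202 CPM (-0.29 ± 0.07, adjusted p = 0.000772, interaction -0.59 ± 0.09, adjusted p = 4.73e-05). In all 3, every Lipase Inh. + ISO sample lay below every Lipase Inh. + Vehicle sample.

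The largest fall was in Slc6a9 (chr4:117507863-117541910, + strand, mm9), which was not called with ISO alone. It was at 45.4, 52.2 and 38.5 CPM in Lipase Inh. + Vehicle and 8.28, 10.4 and 6.59 CPM in Lipase Inh. + ISO, a fold change of 0.182 (log2 -2.46 ± 0.16, adjusted p = 2.48e-11) and an interaction of -2.16 ± 0.22 (adjusted p = 1.06e-07). Slc1a5 was at 633, 609 and 618 CPM and 283, 305 and 295 CPM, a log2 fold change of -1.08 ± 0.06 (adjusted p = 2.41e-12) with an interaction of -0.52 ± 0.09 (adjusted p = 6.18e-05). Phgdh and Psph fell as well (-0.62 ± 0.09, adjusted p = 3.44e-06 and -0.52 ± 0.15, adjusted p = 0.00484), so that all 3 genes of serine synthesis were lower with ISO under inhibitors, Psph not without Lipase Inh. + Vehicle replicate 2 (adjusted p = 0.0587). The interaction of Psph was lost in 7 of 12 fits that left out a library (0.0511 to 0.123), and on total counts (-0.52, adjusted p = 0.0583). Gpt2 went from 136, 133 and 159 CPM to 90.0, 83.8 and 94.7 CPM (-0.67 ± 0.09, adjusted p = 1.65e-06), and its interaction missed the threshold (adjusted p = 0.0528).

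Eprs (chr1:187186974-187252234, + strand), Slc7a6 (chr8:108692775-108722604, + strand) and Got1 (chr19:43574243-43599095, - strand, all mm9) went the other way and were highest of all groups in Lipase Inh. + ISO. The letters TGACG stood in windows of Eprs and Slc7a6 but not of Got1, and also in that of Slc6a9, which fell. Eprs was at 165, 166 and 155 CPM in Lipase Inh. + Vehicle and 782, 803 and 789.7 CPM in Lipase Inh. + ISO, a 4.90-fold rise (2.29 ± 0.06, adjusted p = 1.95e-17 in log2) with an interaction of 1.10 ± 0.09 (adjusted p = 2.47e-09). Slc7a6 was at 82.3, 79.6 and 78.9 CPM and 299, 304 and 272 CPM, a 3.63-fold rise (1.86 ± 0.09, adjusted p = 1.62e-13) with an interaction of 1.46 ± 0.13 (adjusted p = 1.19e-08). Got1 was at 22.8, 28.2 and 22.3 CPM and 105, 99.1 and 93.6 CPM, a 4.07-fold rise (2.03 ± 0.10, adjusted p = 4.03e-13). For Got1 the interaction of 0.40 ± 0.15 (adjusted p = 0.0398) was near the threshold and was lost when any of 8 of the 12 libraries was left out (adjusted p = 0.0636 to 0.114), that is all but ISO replicate 2, Lipase Inh. + Vehicle replicate 2, Vehicle replicate 3 and Lipase Inh. + ISO replicate 3. Slc1a4, the remaining member with a positive interaction (0.31 ± 0.10, adjusted p = 0.0189), had been lower with ISO alone and was not called with inhibitors (-0.08 ± 0.07, adjusted p = 0.301). Mthfd1l was also higher with inhibitors, from 4.01, 5.19 and 3.76 CPM to 9.27, 9.43 and 9.68 CPM (1.15 ± 0.17, adjusted p = 8.38e-06), with an interaction of -0.05 ± 0.25 (adjusted p = 0.904).

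Few SR-3420 effects passed the test once the lipases were inhibited, though a fit with a replicate block called more members higher, as counted in the closing section. In Lipase Inh. + SR-3420 against Lipase Inh. + Vehicle, 4 members were higher and 0 lower by edgeR, where 2.99% and 1.36% of all genes were, and the median log2 fold change was 0.13 (all genes 0.00). A log2 fold change of at least 1 was called for 0 members (0.214% of all genes higher and 0.0823% lower). DESeq2 called 6 higher and 0 lower, where it called 457 of 12156 genes higher and 191 lower. At an unadjusted p of at most 0.05, 16 were higher and 1 lower, a threshold at which the share of all genes was not taken. Without Lipase Inh. + SR-3420 replicate 2, the library of low depth, 3 were higher and 0 lower. The interaction of SR-3420 with the inhibitors was lower for 22 members and higher for 1 (14.8% and 12.5% of all genes), with a median of -0.44 against 0.01, and without that library 21 were lower. It was at least 1 in size for 0 higher and 7 lower members (1.40% and 2.42% of all genes). Of the 29 members that SR-3420 raised, 22 had a negative interaction and 7 passed neither way, namely Farsb, Lars, Mars, Mthfd1l, Phgdh, Psat1 and Vars. Of the 3165 genes that SR-3420 raised, 54.8% had a negative interaction, which shares the effect without inhibitors. The interaction of Wars was lost in 5 of 12 fits that left out a library (adjusted p = 0.0646 to 0.0928), and that of Shmt2 without SR-3420 replicate 2 or Lipase Inh. + SR-3420 replicate 3 (0.0520 in both).

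The 4 members still higher were Slc7a1, Slc7a11, Slc3a2 and Eprs. Slc7a1 was at 193, 177 and 193 CPM in Lipase Inh. + SR-3420 (0.59 ± 0.09, adjusted p = 0.000430), with an interaction of -1.93 ± 0.13 (adjusted p = 1.21e-09). Slc7a11 was at 15.8, 17.9 and 16.2 CPM (0.65 ± 0.14, adjusted p = 0.00869, interaction -1.59 ± 0.20, adjusted p = 4.26e-06). Slc3a2 was at 224, 205 and 175 CPM (0.49 ± 0.11, adjusted p = 0.0124, interaction -1.46 ± 0.16, adjusted p = 6.84e-07), and its effect was lost without Lipase Inh. + SR-3420 replicate 1 (adjusted p = 0.0762). All 3 samples of these genes lay above all 3 of Lipase Inh. + Vehicle. Eprs was at 177, 198 and 189.6 CPM (0.22 ± 0.06, adjusted p = 0.0476, interaction -0.43 ± 0.09, adjusted p = 0.000839), an effect lost in 5 of the 6 fits that left out a library, all but that without Lipase Inh. + SR-3420 replicate 1 (adjusted p = 0.0793 to 0.182). On total counts the effects of Slc3a2 (0.38, adjusted p = 0.0859) and Eprs (0.10, adjusted p = 0.509) were lost. Without the library of low depth, the effect was 0.63 for Slc7a1, 0.62 for Slc7a11 and 0.48 for Slc3a2, all still called (adjusted p = 0.000997, 0.0293 and 0.0425), and 0.18 for Eprs (0.182), and the interactions were -1.89, -1.63, -1.47 and -0.46.

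The other members below were not called with SR-3420 under inhibitors, and their interactions were negative. Slc7a5 was at 192, 194 and 200.4 CPM, with an interaction of -1.75 ± 0.17 (adjusted p = 1.98e-07). Cth was at 13.2, 8.53 and 9.54 CPM with -1.40 ± 0.21 (adjusted p = 3.50e-05), and Cars at 12.7, 16.5 and 14.8 CPM with -1.28 ± 0.19 (adjusted p = 4.76e-05). Yars was at 61, 71.4 and 62.98 CPM with -0.87 ± 0.13 (adjusted p = 4.00e-05), Iars at 33.6, 42.6 and 35.9 CPM with -0.59 ± 0.18 (adjusted p = 0.0189), and Nars at 101, 94.9 and 96.6 CPM with -0.89 ± 0.12 (adjusted p = 1.41e-05). That of Iars was lost without Vehicle replicate 1 or Lipase Inh. + SR-3420 replicate 1 (adjusted p = 0.0588 and 0.0593). Mthfd2 was at 128, 127 and 132 CPM (-0.83 ± 0.12, adjusted p = 2.02e-05) and Aldh18a1 at 46.6, 43.2 and 41.1 CPM (-0.93 ± 0.12, adjusted p = 7.73e-06). Slc38a1 was at 1.44, 1.60 and 2.10 CPM, and its interaction of -1.05 ± 0.38 (adjusted p = 0.0426) was lost in 9 of 12 fits without a library (0.0501 to 0.113) and by DESeq2 (adjusted p = 0.0844). Without the library of low depth, the interactions were -1.75 for Slc7a5, -1.33 for Cth and Cars, -0.93 for Yars and Aldh18a1, -0.66 for Iars, -0.88 for Nars and -0.82 for Mthfd2, all still called, and -1.02 for Slc38a1 (adjusted p = 0.0600).

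Members described above for their ISO effect under inhibitors, Got1, Slc7a6, Slc6a9, Slc38a2, Psat1, Slc1a5 and Gpt2, were not called with SR-3420 there. Got1 was at 26.1, 31.4 and 26.0 CPM in Lipase Inh. + SR-3420, with an SR-3420 interaction of -0.83 ± 0.16 (adjusted p = 0.000389), and Slc7a6 at 75.0, 91.1 and 69.02 CPM with -0.15 ± 0.13 (adjusted p = 0.413). Slc6a9 was at 47.9, 55.4 and 40.5 CPM with -0.08 ± 0.20 (adjusted p = 0.800), Slc38a2 at 551, 545 and 667 CPM with -0.58 ± 0.14 (adjusted p = 0.00316), Psat1 at 271, 279 and 310.2 CPM with -0.24 ± 0.09 (adjusted p = 0.0676), and Slc1a5 at 595, 535 and 555 CPM with 0.06 ± 0.09 (adjusted p = 0.662). Gpt2, the 1 member with a positive SR-3420 interaction (0.45 ± 0.13, adjusted p = 0.0122), was at 146, 134 and 152 CPM. A difference between the 2 interactions was not tested. Of the 26 members higher with both stimuli, 18 had a negative interaction with both (29.5% of the 2356 genes higher with both), Cth and Slc38a2 among them. Without the library of low depth, the SR-3420 interaction was -0.89 for Got1, -0.53 for Slc38a2, -0.25 for Slc7a6, -0.18 for Slc6a9, -0.22 for Psat1, 0.09 for Slc1a5 and 0.49 for Gpt2.

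**Figure D4:**
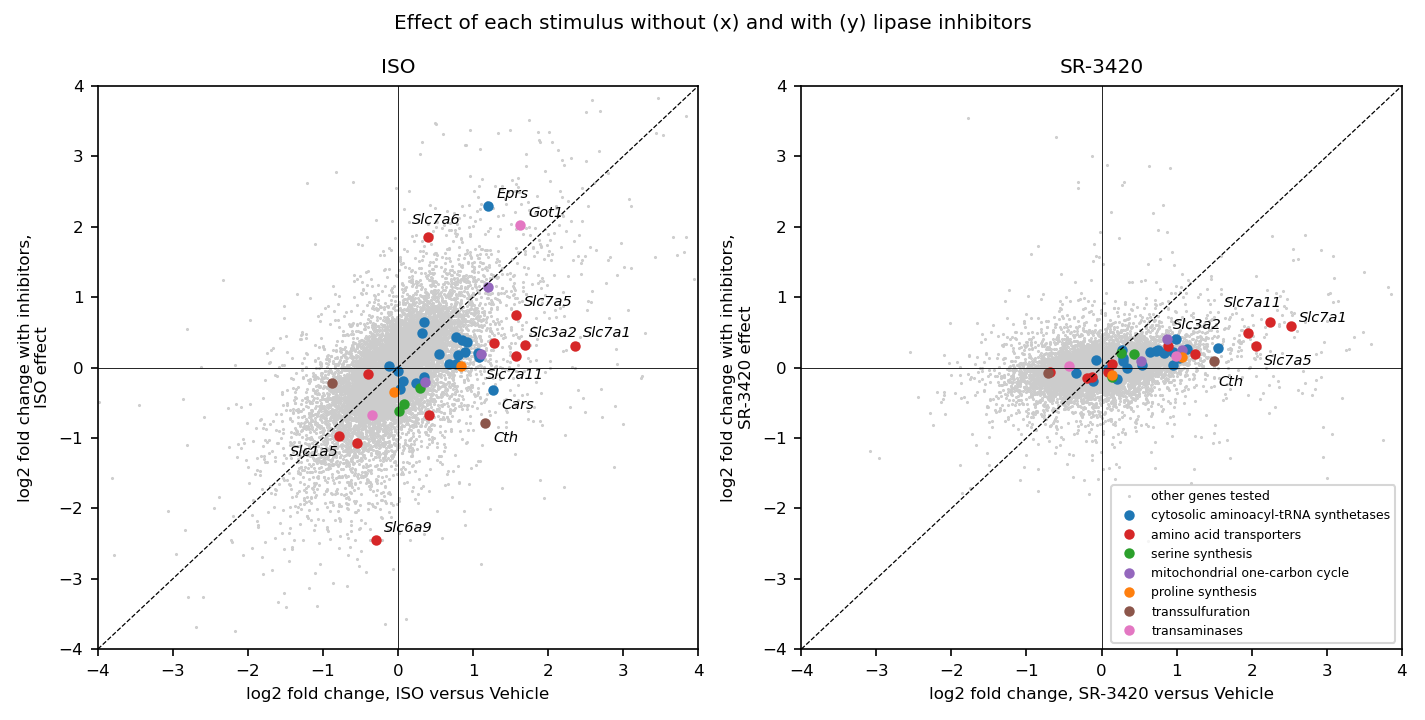
The log2 fold change of each stimulus with inhibitors (y axis) is plotted against that without (x axis), for ISO (left) and SR-3420 (right), with the 43 members coloured by role over all other genes tested in grey, and the dashed line marks equal effects (36 genes for ISO and 10 for SR-3420 lie outside the axes). Most coloured points with a positive x value lie below the dashed line, and for ISO Eprs, Got1 and Slc7a6 lie above it, Eprs at 1.20 and 2.29.

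Factors that sense amino acid supply or act in the response to it were read beside the members, as 8 genes listed for this purpose. Of these, 6 were higher and 1 lower with ISO, 7 higher and 1 lower with SR-3420, and all 8 had a negative ISO interaction with the inhibitors (all genes 26.8% higher and 25.0% lower with ISO, 26.0% and 25.4% with SR-3420, 16.6% for the interaction). With ISO under inhibitors, 0 of the 8 were higher and 6 lower (29.4% and 28.3% of all genes). Of these 6, 4 fell by a log2 fold change of at least 1 (7.63% of all genes). In Lipase Inh. + SR-3420 5 of the 8 were still higher and 0 lower (2.99% and 1.36% of all genes), with Chac1 at 1.10 ± 0.12 (adjusted p = 5.89e-06) and Ddit3 at 0.69 ± 0.07 (adjusted p = 5.53e-06), and the SR-3420 interaction was negative in 6 (14.8% of all genes). The mRNA of Atf4 was at 328 to 365 CPM with Vehicle, 824 to 852 CPM with ISO, 1030.5 to 1091 CPM with SR-3420, 372 to 422 CPM in Lipase Inh. + Vehicle, 360.2 to 469 CPM in Lipase Inh. + ISO and 514 to 554 CPM in Lipase Inh. + SR-3420. It differed by 1.30 ± 0.08 (adjusted p = 1.21e-11) in log2 with ISO, 1.62 ± 0.08 (adjusted p = 5.98e-13) with SR-3420 and 0.03 ± 0.08 (adjusted p = 0.776) with ISO under inhibitors. Chac1, which degrades glutathione, rose by 0.90 ± 0.12 (adjusted p = 1.65e-06) with ISO and 2.20 ± 0.12 (adjusted p = 2.59e-12) with SR-3420 and fell with ISO under inhibitors (-2.23 ± 0.14, adjusted p = 2.01e-11). Ddit3, a stress-induced transcription factor gene, did the same (0.67 ± 0.07, adjusted p = 1.26e-07, 1.87 ± 0.07, adjusted p = 2.15e-14 and -1.47 ± 0.08, adjusted p = 5.78e-13). Trib3, a pseudokinase gene that ATF4 induces, fell from 280.1 to 349.0 CPM in Lipase Inh. + Vehicle to 52.6 to 64.6 CPM in Lipase Inh. + ISO (-2.36 ± 0.10, adjusted p = 1.34e-14), and Sesn2, a leucine sensor, rose with ISO by 1.19 ± 0.08 (adjusted p = 1.47e-10) and was lower with it under inhibitors (-0.38 ± 0.09, adjusted p = 0.000761). Eif2ak4, the kinase that uncharged tRNA activates, was higher with ISO (0.56 ± 0.12, adjusted p = 0.000656) and SR-3420 (0.45 ± 0.12, adjusted p = 0.00410). Asns, the asparagine synthetase and a classical ATF4 target, was at 78.8 to 91.4 CPM with Vehicle, 156 to 178 CPM with ISO and 83.3 to 105.5 CPM in Lipase Inh. + ISO, with an ISO interaction of -0.99 ± 0.11 (adjusted p = 4.71e-07).

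A few members overlap a neighbour on the opposite strand, and whether the counts used strand is not given in the sources used here. Farsb shares 2329 bases with Sgpp2, Mars 68 with Ddit3, Slc6a9 44 with Ccdc24, Shmt2 32 with Ndufa4l2 and Yars 30 with C77080, so that reads in these stretches could come from either gene.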

How the data were processed

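RNA was sequenced from 18 cultures of BAT-LgT adipocytes (6 groups of 3). Per the labels and the study's methods, the authors aligned reads with STAR 2.4.2a to mm9 and deposited whole-number counts per RefSeq gene made with iRNA-seq from HOMER tag directories that kept 1 read per position and length, which can cap the counts of abundant short transcripts. Use of strand is not given in the sources used here. Deposited starts count from 0 and are printed from 1.

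Counts were tested with edgeR 4.0.16 (R 4.3.3) in 1 quasi-likelihood fit of all 18 samples with TMM factors. filterByExpr (minimum count 10, minimum total 15) kept 12156 of 20295 genes. A gene was called at a Benjamini-Hochberg adjusted p of at most 0.05 over these genes, in 6 comparisons of groups and 2 interactions. Depth per sample was 4263755 to 21205032 counts and limits precision at low levels. Alternatives were DESeq2 1.42.0, RLE factors, total counts, other filters, fits to the groups compared, a replicate block and single samples left out.

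The rule for the members uses symbols and no measured value, but the members and lists were chosen with earlier results of these data known. Values per sample are given for members past the call and an absolute log2 fold change of 1 in at least 1 comparison, and for the highest per length in each role. Replicates are independent experiments per the study's methods. Adjusted p-values adjust for genes, not for the 8 contrasts.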

Additional observations from a re-analysis of the deposited data

How the results depend on the processing

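Limits: 3 samples a group, sums over whole cultures and low depth in Lipase Inh. + SR-3420 replicate 2 bound what could be detected, and with levels near 1 CPM (Slc38a1, Slc7a3) small changes could not be. Of 154 calls of members, RLE size factors and the replicate block lost 0, DESeq2 and the stricter filter 1 each, no filter 2, a fit to only the groups compared 5, and total counts 24, and total counts reversed 2 more. Those reversed were Psat1 with ISO at -0.0067 and Mthfd2 with ISO under inhibitors at -0.027 in log2; the scaling itself moved the median of all genes. Total counts gave 8 lower with ISO, 6 lower with SR-3420, 17 lower for ISO versus SR-3420, 6 higher and 17 lower with ISO under inhibitors and 2 higher with SR-3420 under inhibitors. In the last, 114 of 12156 genes were higher at that setting, and the counts of all genes for the others are given above. Requiring also a log2 fold change of at least 1 gave by construction fewer: 13 higher and 0 lower with ISO, 11 and 0 with SR-3420, 0 and 0 between them, 4 and 2 with ISO and 0 higher with SR-3420 under inhibitors, 2 and 7 for the ISO interaction and 0 and 7 for the SR-3420 interaction. For the inhibitors alone, no filter gave 2 higher and DESeq2 1; the cause was not tested. Leaving out single libraries gave 1242 checks of these calls, each of a call without a library, of which 97 lost the call and 0 reversed it. The counts then ranged from 27 to 29 higher and 3 to 5 lower with ISO, 26 to 29 and 2 to 4 with SR-3420, 2 to 4 and 5 to 8 for ISO versus SR-3420 (5 without SR-3420 replicate 2), 9 to 16 and 8 to 13 with ISO under inhibitors, 3 to 4 and 0 with SR-3420 under inhibitors, 3 to 4 and 22 to 26 for the ISO interaction, and 1 and 19 to 22 for the SR-3420 interaction.

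The replicate numbers are shared by the groups but were not taken to pair samples. Of 45 same-numbered pairs, 28 had a correlation of deviations over 0.1 (range -0.114 to 0.280, mean -0.0118, 0.150 and 0.190 for numbers 1, 2 and 3). Same-numbered pairs of numbers 2 and 3 were all positive. Pairs of a number 2 with a number 3 sample were all negative (-0.294 to -0.0517). Differently numbered pairs ranged from -0.294 to 0.165. Whether samples with number 2 or 3 share an experiment was not tested, and the main fit does not use the numbers. With the replicate block, 5 members were higher for ISO versus SR-3420, 2 for the inhibitors alone (Slc7a1 and Slc6a9) and 8 with SR-3420 under inhibitors. Of the 12156 genes, 2274, 147 and 577 were higher in the same order.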

Other observations

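Of 21 amino acid transporters outside the 43 genes, 15 passed the filter, and with ISO 3 were higher and 8 lower, with SR-3420 4 higher and 7 lower (all genes 26.8% higher and 25.0% lower with ISO, 26.0% and 25.4% with SR-3420). Slc6a6, which imports taurine, was at 699 to 772 CPM with Vehicle, 239 to 252 CPM with ISO, 361 to 376 CPM with SR-3420, 828 to 858 CPM in Lipase Inh. + Vehicle, 165 to 197 CPM in Lipase Inh. + ISO and 705 to 763 CPM in Lipase Inh. + SR-3420. It differed by -1.58 ± 0.07 (adjusted p = 2.22e-14) in log2 with ISO, -0.99 ± 0.06 (adjusted p = 5.79e-11) with SR-3420 and -2.21 ± 0.07 (adjusted p = 8.42e-17) with ISO under inhibitors. Slc43a1 and Slc43a2, carriers of large neutral amino acids, were also lower with ISO (-1.45 ± 0.14, adjusted p = 2.28e-08, and -1.28 ± 0.11, adjusted p = 2.07e-09). Slc7a8, a light chain gene, was at 0 to 0.541 CPM with Vehicle and 1.60 to 4.62 CPM with ISO, too scarce for a precise fold change.

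Of 29 other enzymes of amino acid and one-carbon metabolism, 27 passed the filter, and with ISO 3 were higher and 5 lower, with SR-3420 5 higher and 9 lower. With ISO this is 11.1% higher and 18.5% lower, under the 26.8% and 25.0% of all genes. With SR-3420 it is 18.5% higher, under the 26.0% of all genes, and 33.3% lower, above their 25.4%. Bcat1, the cytosolic branched-chain aminotransferase, was at 7.76 to 10.2 CPM in Vehicle samples, 15.5 to 17.04 CPM in ISO samples and 21.9 to 26.2 CPM in SR-3420 samples (0.82 ± 0.14, adjusted p = 3.96e-05, and 1.41 ± 0.13, adjusted p = 1.95e-08). Its mitochondrial counterpart Bcat2 was lower with SR-3420 (-0.71 ± 0.09, adjusted p = 5.91e-07). Amt, of the glycine cleavage system, was lower with ISO (-1.19 ± 0.17, adjusted p = 3.29e-06) and SR-3420 (-0.86 ± 0.16, adjusted p = 9.59e-05). Asl, the argininosuccinate lyase, was at 3.06 to 6.18 CPM in Lipase Inh. + Vehicle and 11.1 to 12.7 CPM in Lipase Inh. + ISO (1.54 ± 0.22, adjusted p = 4.15e-06), with an ISO interaction of 1.51 ± 0.34 (adjusted p = 0.00151). Slc43a2 and Bcat2 were named after their values had been seen.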
